A study of Mus musculus with 36 samples.

Results

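Genes of antibody production and transport were followed in mouse lung, 6 in all. They are Ighm, Igha, Ighg1 and Ighg3, which encode the constant regions of the heavy chains of IgM, IgA, IgG1 and IgG3, Mzb1, a chaperone of the endoplasmic reticulum of antibody-secreting cells, and Pigr, the receptor that carries IgA and IgM across epithelium. They were chosen by name, as the 6 symbols of a fixed list that have a row in both count tables, out of 17716 genes in both tables and 18691 in either. The study asked how crude oil and the dispersants used on it act on the lung. The mRNA of 36 left lungs of C57BL/6 wild-type animals was sequenced with a stranded kit, with 18 female and 18 male mice and 3 per sex and group. The control mice received saline, and the treated mice received oil, one of the dispersants Corexit 9500 and Corexit 9527, or oil mixed with one of them (9500+oil, 9527+oil). Every agent was mixed into Hank's balanced salt solution and given at a concentration of 0.1 of that preparation, at days 0, 7 and 13 of the 14 days. Of the oil preparation only the saline phase was used, while those holding a dispersant hardly separated and were given as mixed, per the paper. Animals were aged 8 weeks when dosing began, and 3 saline mice per sex served as controls for all 5 treatments of that sex. The route was oropharyngeal aspiration in the paper and intratracheal instillation in the series record. Each library is 1 mouse. The sexes were treated separately and their counts deposited as separate tables, so sex, the separate treatment and the table cannot be told apart.

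B cells first carry IgM and IgD on their surface, and both are read from the same transcript by alternative splicing. After activation, class switching joins the rearranged variable region to a constant region farther along the locus, which gives IgG, IgE or IgA, and plasma cells then secrete the antibody. At mucosal surfaces IgA and IgM are joined into polymers by the J chain, bound by the polymeric immunoglobulin receptor on the basal side of epithelial cells and released into the lumen with part of the receptor.

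The 4 heavy chain members lie on the minus strand of chromosome 12 in GRCm38 (GENCODE M21), in the order Ighm at chr12:113418558-113422730, Ighg3 at chr12:113356224-113361232, Ighg1 at chr12:113325240-113330523 and Igha at chr12:113254830-113260236. The IgG genes are close copies of one another, and the hinge, exon 2 of each gene, differs between them in length and sequence. It is shown here because the assignment of reads between IgG genes bears on the values of Ighg1 and Ighg3. The sequences are those of the annotated C57BL/6 transcripts, 5′ to 3′ on the coding strand, and capitals mark the in-frame cysteine codons, TGT or TGC, whose residues can link the heavy chains.
Ighg3, chr12:113360529-113360576: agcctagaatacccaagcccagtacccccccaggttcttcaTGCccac
Ighg1, chr12:113329844-113329882: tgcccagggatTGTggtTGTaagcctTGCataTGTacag
Ighg2b, chr12:113307261-113307326: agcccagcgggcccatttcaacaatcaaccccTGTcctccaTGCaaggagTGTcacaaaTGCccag
Ighg2c, chr12:113288263-113288325: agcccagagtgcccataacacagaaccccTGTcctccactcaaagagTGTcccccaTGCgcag

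The hinge exons are 48, 39, 66 and 63 bases long and hold 1, 4, 4 and 3 such codons in this order. Of all stretches of 31 bases in the transcripts of Ighg1, 1.72% also occur in a transcript of another gene, mostly Ighg2b, and of those of Ighg3, 3.63%. The share is 9.29% for Ighg2b and 14.98% for Ighg2c, which are no members. Ighm and Igha share 0 such stretches and Pigr 1.02%. Mzb1 shares 55.09% with the transcripts that the annotation lists as SPATA24, so its counts are uncertain where reads could be split between the overlapping genes. Reads were assigned to transcripts by the authors, and how shared reads were divided cannot be seen in the tables.

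Total counts ran from 17501180 to 30011557 per mouse. A set of 4 female libraries, saline mouse 3, oil mouse 6, Corexit 9527 mouse 11 and 9500+oil mouse 14, stood apart, with 20.67% to 45.09% of their counts from mitochondrial genes against 5.27% to 11.34% in the other 32. In these 4 the ratio of GC-rich to GC-poor transcripts was -4.04 to -2.45 on the log2 scale from the median of all 36 libraries, against -0.82 to 0.34 elsewhere. Alveolar and endothelial markers were present in every library, with a summed level of 11500 to 27300 CPM (counts per 1000000 counts, scaled by TMM within the table). The 20 B cell markers, all of them in both tables, summed to 277 to 908 CPM in female and 295 to 734 CPM in male mice, and the 6 thymus genes found to 6.05 to 19.6 CPM. In RNA of whole lung, fewer cells of a type and less RNA per cell cannot be told apart.

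The levels of the members lay far apart. Per kilobase of exon, the median over the 18 female mice was 125 CPM for Ighm, 26.2 for Pigr, 5.76 for Igha, 1.34 for Mzb1, 0.43 for Ighg1 and 0.335 for Ighg3. In the 18 male mice the same order held, with medians of 139, 22, 16.5, 1.89, 0.486 and 0.18 CPM per kilobase. Ighm was above Pigr in 18 of 18 mice of each sex. Pigr was above Igha in 18 of 18 female and 15 of 18 male mice. The lower end of the order was not separated: Mzb1 was above Ighg1 in 14 of 18 female and 16 of 18 male mice, and Ighg1 was above Ighg3 in 8 of 18 female and 14 of 18 male mice. Within a gene, the 6 treatment groups were ranked by mean CPM in each sex, and 58 of 60 pairs of neighbouring groups overlapped in their ranges.

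**Figure D1:**
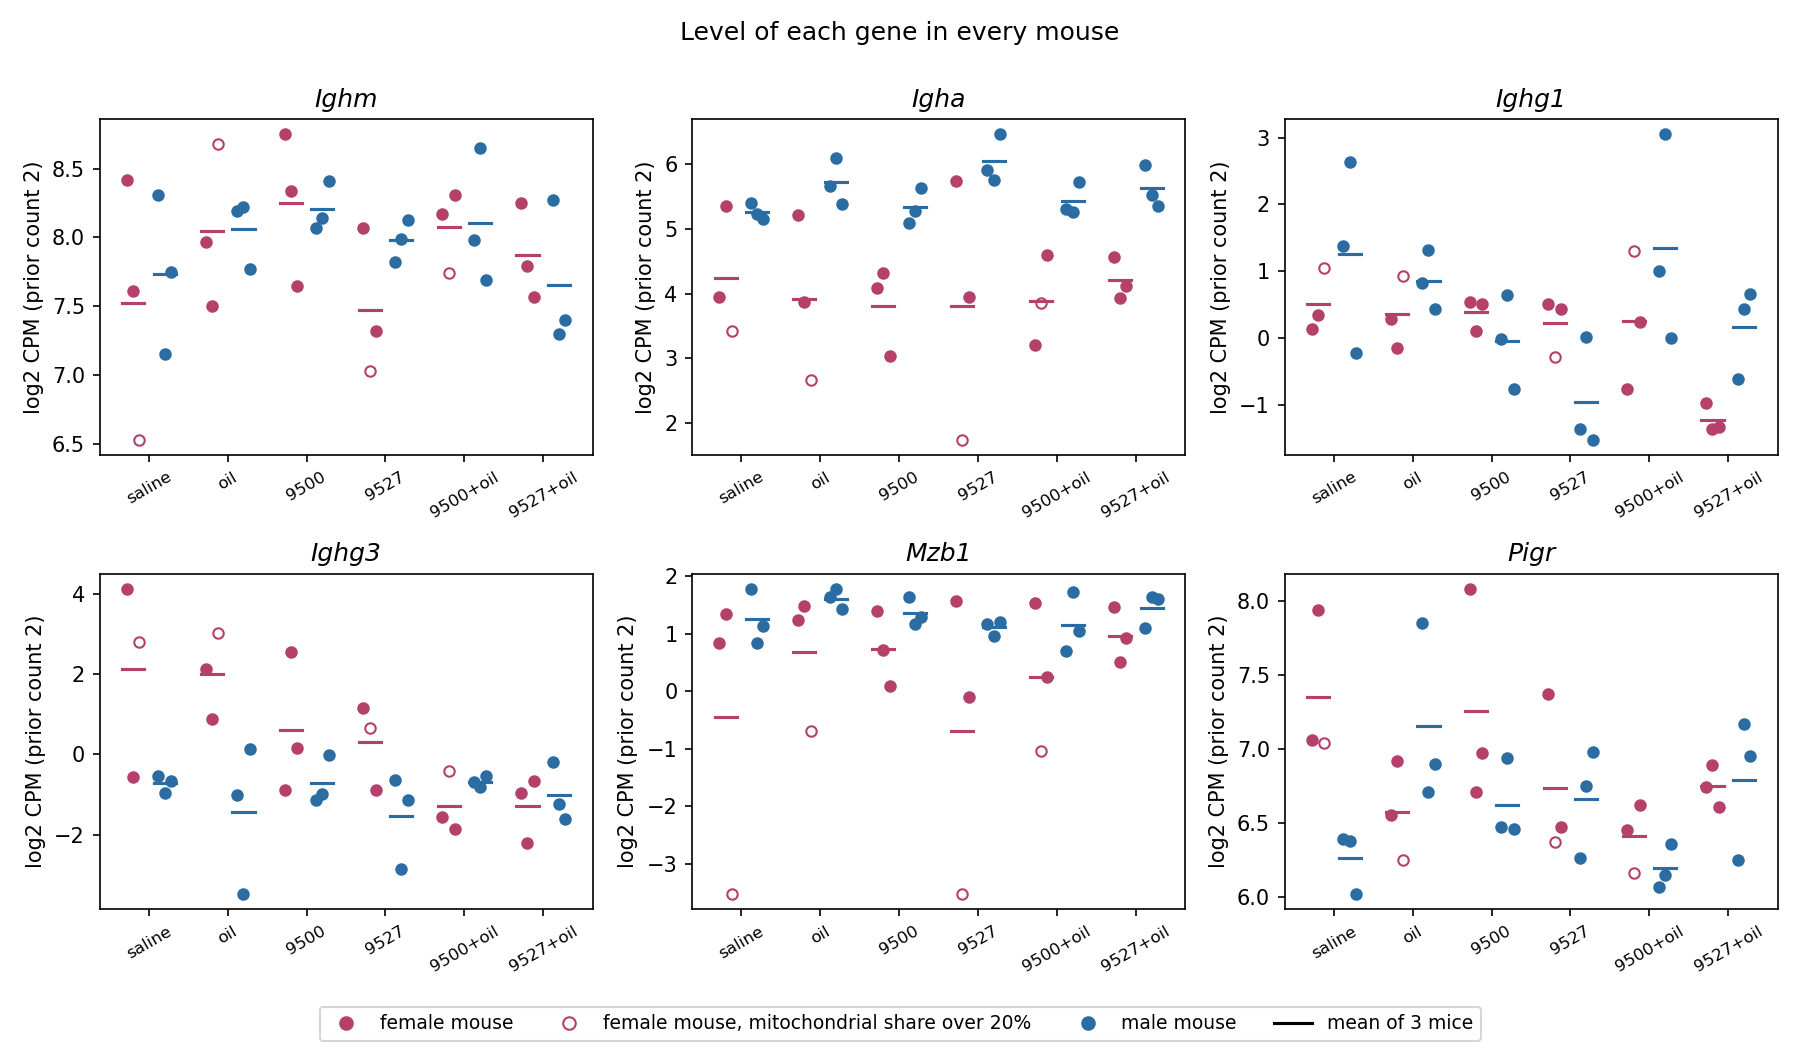
Level of each member in every mouse, as log2 CPM after TMM normalization within the table of the sex with a prior count of 2, by treatment group, with a bar at the mean of 3 mice. Open points are the 4 female libraries with over 20% mitochondrial counts, which hold the 4 lowest values of Mzb1. The Ighg3 of female saline mouse 1 stands at 17.2 CPM and that of no male mouse above 1.01 CPM.

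IgM, the first antibody of a response, had the highest median share of the heavy chain constant region counts in both sexes. Ighm lay between 92.5 and 429 CPM in female and between 142 and 401 CPM in male mice. The 3 female saline mice had 342, 195 and 92.5 CPM, the last in a library with a high mitochondrial share, and the 3 male saline mice had 318, 142 and 215 CPM. Saline mice therefore spanned most of the range of all mice. The comparison with the smallest p was Corexit 9500 in each sex and over both. The female Corexit 9500 mice had 429, 324 and 201 CPM, a log2 fold change of 0.60 (SE 0.55) by edgeR's quasi-likelihood test (unadjusted p = 0.31, adjusted p = 1). By limma voom this log2 fold change was -0.07. The male Corexit 9500 mice had 268, 281 and 339 CPM, a log2 fold change of 0.40 (SE 0.25, unadjusted p = 0.145, edgeR adjusted p = 0.822). Over both sexes the log2 fold change was 0.50 (SE 0.31, unadjusted p = 0.132, edgeR adjusted p = 0.972). In none of these did the treated mice lie apart from the saline mice.

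IgA is the antibody of mucosal secretions, and Igha had the highest median level of the switched members in both sexes. In male mice Igha lay between 33.9 and 87.8 CPM, with a median of 44.1. In female mice it lay between 3.28 and 53.4 CPM, with a median of 15.4, and 3 of 18 female mice were above the lowest male mouse. In the 14 female mice without the high mitochondrial share the median was 17.1 CPM. The tables of the sexes were normalized separately and the difference between them was not tested.

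The clearest difference of Igha from saline was in male mice given Corexit 9527. The 3 treated mice had 59.9, 53.6 and 87.8 CPM and the 3 saline mice 42, 37.5 and 35.5 CPM, so that every treated mouse was above every saline mouse. The means were 67.1 ± 18.2 and 38.4 ± 3.34 CPM (SD, n = 3), and the log2 fold change was 0.81 (SE 0.18). It did not pass edgeR's quasi-likelihood test after Benjamini-Hochberg adjustment over 14919 genes (unadjusted p = 0.00171, adjusted p = 0.117). DESeq2, run as an alternative, called it (log2 fold change 0.81, adjusted p = 0.00179), while limma voom did not. Leaving out each of the 6 mice in turn gave 0.58 to 0.95. In male oil mice Igha stood at 50.4, 68.6 and 41.9 CPM, the lowest of them just below the highest saline mouse, with a log2 fold change of 0.48 (SE 0.18, unadjusted p = 0.0251, edgeR adjusted p = 0.508). The female Corexit 9527 mice had 53.4, 3.28 and 15.4 CPM against 15.3, 41.1 and 10.7 in saline, and the smallest p in female mice was that of Corexit 9500, at a log2 fold change of -0.58 (SE 0.62, unadjusted p = 0.384, edgeR adjusted p = 1). This Corexit 9500 value was 0.20 without saline mouse 2. Over both sexes Corexit 9527 gave the smallest p, at 0.46 (SE 0.54, unadjusted p = 0.415, edgeR adjusted p = 1), which was -0.05 without female Corexit 9527 mouse 10.

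Other measures stood beside the Igha of the male Corexit 9527 mice. Jchain, which joins IgA and IgM into polymers, had 11.4, 7.04 and 20.1 CPM in these mice against 6.62, 7.57 and 6.99 in saline, with 1 treated mouse inside the range of saline, and a log2 fold change of 0.86 (SE 0.33, unadjusted p = 0.0309, edgeR adjusted p = 0.301). Without mouse 12, the highest, it was 0.40 (unadjusted p = 0.139, edgeR adjusted p = 0.462). Of the 21 genes tested of the plasma cell program, which holds Mzb1, 15 were higher and 6 lower, 3 and 1 of them at an unadjusted p under 0.05, a level that 13.7% of all genes reached, with a median log2 fold change of 0.18 beside -0.01 over all genes. Those with the smallest p were Prdx4, a peroxidase of the endoplasmic reticulum, at 0.56 (SE 0.13), Sdc1, the surface proteoglycan CD138 of plasma cells that epithelium also carries, at 0.34 (SE 0.09), and Jchain. The summed level of the B cell markers was 349 to 592 CPM against 295 to 734 in saline, so the groups overlapped. Airway epithelial markers summed to 17100 to 20200 CPM against 22100 to 27200, and red cell genes to 2720 to 6780 against 7530 to 12600. The part of these in the Igha values was not tested.

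IgG1 and IgG3 are switched isotypes of the IgG class, IgG3 the one most often made without T cell help. Both members rested on few reads, 5 to 153 counts per mouse for Ighg1 and 0 to 425 for Ighg3. Ighg1 had its lowest group means in male Corexit 9527 and female 9527+oil mice. The male Corexit 9527 mice had 0.3, 0.923 and 0.259 CPM against 2.49, 6.15 and 0.767 in saline. One treated mouse was above the lowest saline mouse, so the groups overlapped. The log2 fold change was -2.63 (SE 0.80, unadjusted p = 0.00988, edgeR adjusted p = 0.199), DESeq2 called it (-2.65, adjusted p = 0.0187), and limma voom did not. Without saline mouse 2, the highest of the 3, it was -1.68.

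The female 9527+oil mice had 0.423, 0.3 and 0.309 CPM of Ighg1, which rested on 13, 7 and 8 counts, against 1.01, 1.18 and 1.98 CPM in saline. Every treated mouse was below every saline mouse, at a log2 fold change of -1.995 (SE 0.591, unadjusted p = 0.015, edgeR adjusted p = 0.914). The male 9527+oil mice had 0.563, 1.27 and 1.49 CPM and overlapped with saline. Over both sexes the 9527+oil mice gave -1.72 (SE 0.48, unadjusted p = 0.00382, edgeR adjusted p = 0.837), and each of the 12 fits with 1 mouse left out gave between -1.97 and -1.33. The male Corexit 9500 mice had 0.899, 1.47 and 0.501 CPM, a log2 fold change of -1.71 (SE 0.69, unadjusted p = 0.0357, edgeR adjusted p = 0.782), which was -0.76 without saline mouse 2. All of these share the saline mice of their sex.

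Ighg3 lay between 0.128 and 17.2 CPM in female mice. The female saline mice had 17.2, 0.588 and 6.87 CPM, on 425, 19 and 59 counts, and the female oil mice 4.22, 1.76 and 7.99 CPM. The female 9500+oil mice had 0.251, 0.661 and 0.19 CPM and the 9527+oil mice 0.423, 0.128 and 0.541 CPM. All 3 of the 9527+oil mice were below the lowest saline mouse, and 2 of 3 of the 9500+oil mice were. The log2 fold changes were -4.52 (SE 1.30, unadjusted p = 0.0118, edgeR adjusted p = 1) in 9500+oil and -4.48 (SE 1.30, unadjusted p = 0.0137, edgeR adjusted p = 0.914) in 9527+oil. With saline mouse 1 left out and the others kept, they stood at -3.48 and -3.30. Without saline mouse 3, whose library had 45.09% mitochondrial counts, the 9527+oil difference was -4.55 (unadjusted p = 0.00521, edgeR adjusted p = 0.325). The 9500+oil mouse above a saline mouse was mouse 14, also of high mitochondrial share, and without both libraries the 9500+oil difference was -5.28 (unadjusted p = 0.0121, edgeR adjusted p = 1).

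In male mice Ighg3 lay at 0 to 1.01 CPM, on at most 29 counts. One oil mouse had 0 counts, which allows up to 0.168 CPM. The comparison with the smallest p was Corexit 9527, with 0.551, 0.0486 and 0.362 CPM against 0.597, 0.42 and 0.542 in saline, a log2 fold change of -0.69 (SE 0.70, unadjusted p = 0.352, edgeR adjusted p = 0.726). Over both sexes 9527+oil gave -2.46 (SE 1.07, unadjusted p = 0.0411, edgeR adjusted p = 0.837). The difference between the sexes in the response to 9500+oil was 4.54 on the log2 scale (male minus female, SE 1.34, unadjusted p = 0.00644, edgeR adjusted p = 1), and in the response to 9527+oil 4.26 (SE 1.41, unadjusted p = 0.0124, edgeR adjusted p = 0.948). Neither passed the adjusted threshold.

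**Figure D2:**
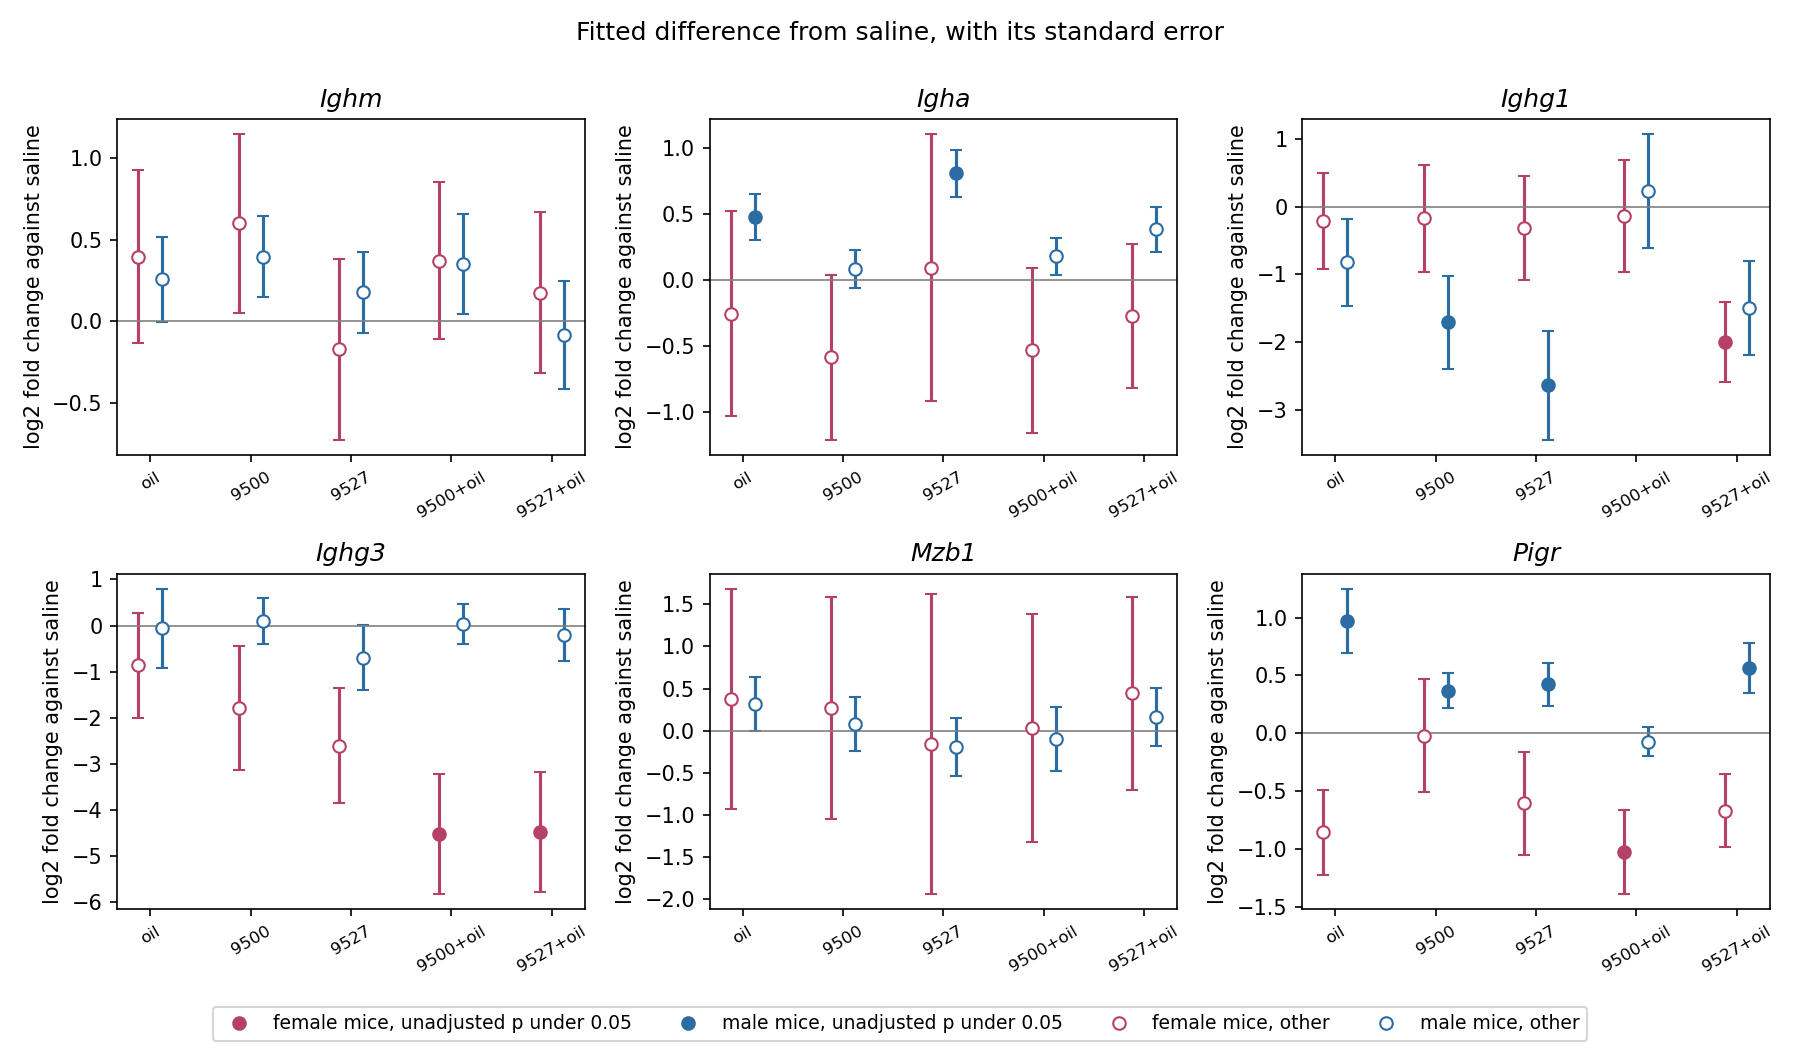
Fitted log2 fold change of each member against saline in each treatment and sex, from edgeR with 3 against 3 mice, with its standard error as the bar. Filled points have an unadjusted p under 0.05, and no point has an adjusted p under 0.05. The female Ighg3 differences reach -4.52, and the Pigr differences of oil lie on opposite sides of 0 in female and male mice.

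As a share of all heavy chain constant region counts, Ighm held 47.5% to 72.3% in female and 54.5% to 69.3% in male mice, and Ighd 20.2% to 45.5% and 15.6% to 33%. Igha held 1.11% to 12.6% in female and 6.04% to 19.9% in male mice. The IgG genes together held 0.392% to 6.33% and 0.656% to 7.77%. The highest share of Ighg3 was 3.53% (95% Wilson interval 2.74% to 4.52%), in female saline mouse 3, and the next 3.07% (2.80% to 3.38%), in female saline mouse 1. The lowest in female mice was 0.0385% (0.0131% to 0.113%), in a female 9527+oil mouse. Counting error is all that these intervals describe. Single mice stood out in the IgG genes. Ighg2b took 7.08% of the counts of male 9500+oil mouse 13, and its level there was 32.4 CPM, against 1.34 and 3.61 CPM in the other 2 mice of that group. Ighe was listed for male mice alone, with 0 to 4 counts per mouse.

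**Figure D3:**
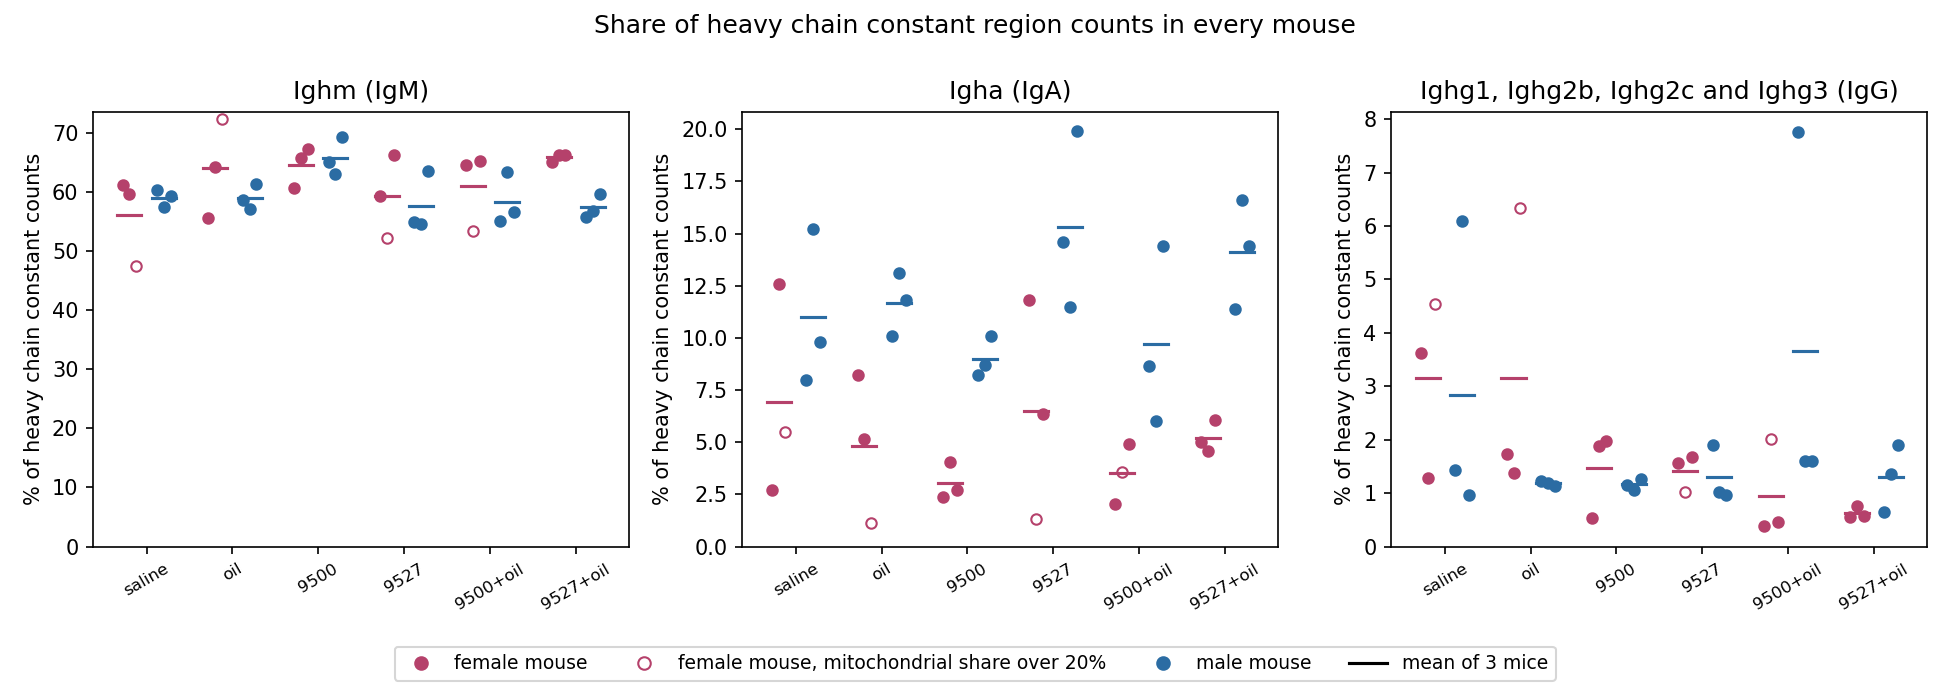
Share of the heavy chain constant region counts taken by Ighm, by Igha and by the 4 IgG genes together in every mouse, in %, by treatment group, with a bar at the mean of 3 mice. The Igha share of the male Corexit 9527 mice lies at 11.5% to 19.9%, overlapping the 7.97% to 15.2% of male saline mice. One male 9500+oil mouse reaches 7.77% for IgG.

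Of the other constant region genes, Igkc, the kappa light chain, lay at 70.5 to 594 CPM in female and 146 to 301 in male mice. Its log2 fold change in the female 9527+oil mice was -0.75 (SE 0.28, unadjusted p = 0.038, edgeR adjusted p = 0.914), and that of Jchain there was -1.14 (SE 0.43, unadjusted p = 0.0394, edgeR adjusted p = 0.914). With 1 mouse left out, Igkc ran from -0.94 to -0.53, the last without saline mouse 1 (edgeR unadjusted p = 0.135). Jchain ran from -1.37 to -0.90, the last without 9527+oil mouse 17 (edgeR unadjusted p = 0.136). With Ighg1 and Ighg3 among them, 7 of the 9 constant region genes tested in that comparison were lower and 2 higher, 3 and 0 of them at an unadjusted p under 0.05, a level that 1.1% of all genes reached, with a median of -0.19 beside 0.09 over all genes. The B cell markers there summed to 391 to 609 CPM against 433 to 668 in saline, and 11 of 20 were higher and 9 lower. The plasma cell program summed to 1550 to 1640 CPM against 1720 to 3590 in saline, where the highest value was that of a library with a high mitochondrial share, and 8 of its 21 genes tested were higher and 13 lower. The antibody receptors, Pigr among them, summed to 276 to 285 CPM against 335 to 465 in saline, where the highest value was again that of such a library. Pigr alone had 97.3 to 119 CPM there against 131 to 245 in saline. The part of these in the values of Ighg1 and Ighg3 was not tested. The lambda chain gene Iglc2 took 0.109% to 0.858% of the Igkc and Iglc2 counts in the 4 libraries with a high mitochondrial share, and 2.86% to 12.2% in the other 32. Ighg2a, which C57BL/6 mice lack, Iglc1, Iglc3 and Iglc4 have no row in either table.

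Mzb1 helps to fold and secrete IgM in B cells of the marginal zone and in plasma cells, and its gene lies at chr18:35647267-35649367 on the minus strand. In male mice it lay between 1.53 and 3.35 CPM, and in the 14 female mice without the high mitochondrial share between 0.848 and 2.86 CPM. In the other 4 female libraries it lay between 0 and 0.529 CPM. It had 0 counts in saline mouse 3 and in Corexit 9527 mouse 11, which allows up to 0.349 and 0.317 CPM. The smallest p in female mice was that of 9527+oil, with 2.67, 1.33 and 1.82 CPM against 1.7, 2.45 and 0 in saline, and a log2 fold change of 0.44 (SE 1.15, unadjusted p = 0.713, edgeR adjusted p = 0.924), which was -0.09 without saline mouse 3. In male mice it was that of oil, with 3, 3.35 and 2.58 CPM against 3.33, 1.68 and 2.12, and a log2 fold change of 0.32 (SE 0.32, unadjusted p = 0.346, edgeR adjusted p = 0.854). Over both sexes oil gave 0.33 (SE 0.62, unadjusted p = 0.6, edgeR adjusted p = 1).

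Xbp1, the factor that drives secretory capacity in plasma cells and in other secretory cells, had 72.7 to 243 CPM in female and 169 to 260 CPM in male mice. Its 4 lowest female values, 72.7 to 136 CPM, were those of the libraries with a high mitochondrial share.

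Pigr, the transport receptor, lies at chr1:130826684-130852249 on the plus strand. After oil, its levels lay on opposite sides of saline in the sexes: the 3 male mice had 231, 105 and 119 CPM against 83.5, 83.4 and 65 in saline, all above, and the 3 female mice had 93.8, 121 and 75.8 CPM against 133, 245 and 131 in saline, all below. The male means were 152 ± 69.3 and 77.3 ± 10.6 CPM (SD, n = 3), a log2 fold change of 0.97 (SE 0.28, unadjusted p = 0.00764, edgeR adjusted p = 0.374). DESeq2 called this difference (0.97, adjusted p = 0.016) and limma voom did not. Without oil mouse 4, the highest, it was 0.54. The female means were 96.9 ± 22.9 and 170 ± 65.2 CPM, with a log2 fold change of -0.86 (SE 0.37, unadjusted p = 0.0574, edgeR adjusted p = 1). It was -0.52 without saline mouse 2, the highest (unadjusted p = 0.209, edgeR adjusted p = 0.999). Without the 4 libraries of high mitochondrial share, it was -0.81 (unadjusted p = 0.0381, edgeR adjusted p = 1). The difference between the responses was 1.78 on the log2 scale (male minus female, SE 0.50, unadjusted p = 0.00485), but its edgeR adjusted p was 1. With the mouse number shared by the sexes as a replicate block it was 1.67 (unadjusted p = 0.0126, edgeR adjusted p = 1).

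The female mice of the mixtures stood on the same side as those given oil. The 9500+oil mice had 87.5, 71.5 and 98.4 CPM, all below saline, with a log2 fold change of -1.03 (SE 0.36, unadjusted p = 0.0282, edgeR adjusted p = 1) that was -0.69 without saline mouse 2 (unadjusted p = 0.113), and the 9527+oil mice had 107, 119 and 97.3 CPM, also all below. The female mice given a dispersant alone overlapped with saline, at 271, 104 and 126 CPM for Corexit 9500 and 166, 82.4 and 88.4 for Corexit 9527. In male mice, Corexit 9500 gave 88.8, 123 and 88.2 CPM, all above saline, and a log2 fold change of 0.37 (SE 0.15, unadjusted p = 0.0394, edgeR adjusted p = 0.782). Without mouse 8, the highest, it was 0.20 (edgeR unadjusted p = 0.164). Corexit 9527 gave 76.4, 108 and 127 CPM, with 1 of 3 inside the range of saline, and 0.42 (SE 0.18, unadjusted p = 0.0479, edgeR adjusted p = 0.355). This was 0.26 without mouse 12, the highest (edgeR unadjusted p = 0.16). The 9527+oil mice had 75.9, 144 and 123 CPM, with 1 of 3 inside the range of saline, and 0.56 (SE 0.22, unadjusted p = 0.0308, edgeR adjusted p = 0.885). This was 0.37 without mouse 17, the highest (edgeR unadjusted p = 0.122). The male 9500+oil mice had 67.1, 71.2 and 82.2 CPM, within the range of saline. Over both sexes 9500+oil gave the smallest p, at -0.52 (SE 0.23, unadjusted p = 0.0403, edgeR adjusted p = 1). The differences between the responses of the sexes were 0.90 (SE 0.38, unadjusted p = 0.0387, edgeR adjusted p = 1) for 9500+oil and 1.23 (SE 0.41, unadjusted p = 0.0131, edgeR adjusted p = 0.948) for 9527+oil. All treatments of a sex share its 3 saline mice.

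Airway epithelium is a main site of Pigr. The 13 airway epithelial markers summed to 22900 to 28300 CPM in the female oil mice against 10700 to 22000 in saline. The 28300 and the 10700 CPM were those of libraries with a high mitochondrial share. The other female oil mice had 22900 and 23100 CPM, and the other female saline mice 20600 and 22000. In the male oil mice these markers summed to 19200 to 23200 CPM against 22100 to 27200. Of the airway genes tested, 4 of 13 were higher in female and 5 of 12 in male oil mice. Their part in the Pigr values was not tested. The other receptors of antibodies were described from the same fits. In male oil mice, 8 of the 9 antibody receptor genes tested, Pigr among them, were higher and 1 lower, 5 of them at an unadjusted p under 0.05, a level that 8.21% of all genes reached, and 0 at an edgeR adjusted p under 0.05 (DESeq2 called Pigr), with a median log2 fold change of 0.61 beside -0.01 over all genes. The 3 with the smallest p were Fcgr1, a high-affinity receptor of IgG on macrophages, at 0.97 (SE 0.18, unadjusted p = 0.000608, edgeR adjusted p = 0.235), Fcer1g, the signalling chain of several of these receptors, at 0.64 (SE 0.15, unadjusted p = 0.00258, edgeR adjusted p = 0.319), and Fcgr2b, the inhibitory IgG receptor, at 0.61 (SE 0.17, unadjusted p = 0.00707, edgeR adjusted p = 0.365). Tnfsf13, which encodes the plasma cell survival factor APRIL, was at 0.70 (SE 0.11, unadjusted p = 0.000182, edgeR adjusted p = 0.169). Of its list of homing and survival signals, 10 genes were tested there, of which 6 were higher and 4 lower, 2 and 0 of them at an unadjusted p under 0.05. In female oil mice 3 of the 9 receptor genes were higher and 6 lower, with a median of -0.19.

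Over all comparisons, 0 of the 6 members passed an adjusted p of 0.05 in edgeR in any of the 10 comparisons with saline within a sex, the 5 over both sexes, the 2 tests over 6 groups or the 5 tests of the difference between sexes. DESeq2 called 1 member in male oil and 2 in male Corexit 9527 mice, where it called 1.31% and 3.98% of all genes, and 0 in the other 13 comparisons with saline, and limma voom called 0 in all 15. In female mice, an unadjusted p under 0.05 was reached by 0 members in oil, 0 in Corexit 9500, 0 in Corexit 9527, 2 in 9500+oil and 2 in 9527+oil, where 0.108%, 0.364%, 0.267%, 0.155% and 1.1% of all genes tested reached it and 0% passed the adjusted threshold. In male mice the counts were 2 in oil, 2 in Corexit 9500, 3 in Corexit 9527, 0 in 9500+oil and 1 in 9527+oil, beside 8.21%, 6.35%, 13.7%, 9.22% and 5.54% of all genes at that unadjusted level and 0.00671%, 0.00662%, 0.114%, 0% and 0.00669% at the adjusted one. Over both sexes they were 0, 0, 0, 1 and 2, beside 0.442%, 2.3%, 2.86%, 0.418% and 2.99% unadjusted and 0%, 0%, 0.0326%, 0% and 0% adjusted, in the same order of treatments. For the difference between the sexes they were 1, 0, 0, 2 and 2, beside 1.65%, 0.726%, 0.352%, 0.509% and 2.39% unadjusted and 0% adjusted in each.

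The groups of treated and saline mice did not overlap for 1 member in oil, 1 in 9500+oil and 3 in 9527+oil in female mice, and for 0 in Corexit 9500 and Corexit 9527. Over all genes tested the share without overlap was 3.94% in oil, 6.42% in Corexit 9500, 4.05% in Corexit 9527, 2.26% in 9500+oil and 17.9% in 9527+oil. In male mice it was 1 member in oil, 1 in Corexit 9500, 1 in Corexit 9527, 0 in 9500+oil and 0 in 9527+oil, beside 12.8%, 11.7%, 20.1%, 15.4% and 11.8% of all genes. These shares are the level against which 1 of 6 members is to be read.

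The test over all groups of a sex at once, edgeR's quasi-likelihood F test, gave an unadjusted p under 0.05 for 1 member in female mice, Ighg3 (unadjusted p = 0.00603, edgeR adjusted p = 1). There 1.35% of all genes reached the unadjusted and 0.0129% the adjusted threshold. In male mice Pigr (unadjusted p = 0.0155, edgeR adjusted p = 0.337), Igha (unadjusted p = 0.0182, edgeR adjusted p = 0.356) and Ighg1 (unadjusted p = 0.0222, edgeR adjusted p = 0.384) reached it, 3 of 6, where 10.4% of all genes reached the unadjusted and 0.135% the adjusted threshold. DESeq2 called Ighg3 in female mice (adjusted p = 0.0193) and Pigr and Ighg1 in male mice (adjusted p = 0.025 and 0.0433), and limma voom called Ighg1 in female mice (adjusted p = 0.0267). Over all genes, DESeq2 called 0.309% in female and 3.94% in male mice, and limma voom 7.23% in female mice.

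After the mean of each treatment group was subtracted, 15 pairs of members were compared in each sex by permutation tests with 100000 resamples. Values were permuted freely across groups, although subtracting the group means leaves fewer independent values than mice, so these p-values tend to be too small. Whether any relation would pass a test that allows for this was not tested. Of the 30 relations, 1 passed an adjusted p of 0.05, that of Igha and Mzb1 in female mice (Pearson r = 0.73, p = 0.00062, adjusted p = 0.0186; Spearman rho = 0.60, p = 0.0102, adjusted p = 0.0768, permutation tests, n = 18). Without the 2 mice farthest from the median of Igha r was 0.53. Among the 14 female mice without the high mitochondrial share, an alternative chosen after seeing the data, r was 0.39 (permutation p = 0.167). The next lowest Pearson p in female mice was that of Ighg3 and Pigr (Pearson r = -0.64, p = 0.00433, adjusted p = 0.0649; Spearman rho = -0.64, p = 0.00513, adjusted p = 0.0513, permutation tests, n = 18), and r was -0.54 without the 2 mice farthest from the median of Ighg3. Among the same 14 mice it was -0.58 (permutation p = 0.0297, adjusted p = 0.353). By rank, the lowest p in female mice was that of Pigr and Mzb1 (Pearson r = 0.60, p = 0.0084, adjusted p = 0.081; Spearman rho = 0.65, p = 0.00439, adjusted p = 0.0513, permutation tests, n = 18), with r = 0.55 without the 2 mice farthest from the median of Pigr and r = 0.58 among the 14 (permutation p = 0.0299, adjusted p = 0.353). In male mice the lowest p was that of Ighg1 and Ighg3 by rank (Pearson r = -0.50, p = 0.0353, adjusted p = 0.176; Spearman rho = -0.68, p = 0.00247, adjusted p = 0.0513, permutation tests, n = 18), and r was -0.61 without the 2 mice farthest from the median of Ighg1.

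Genes whose levels followed a member most closely were sought among 12720 genes, by the Pearson r of log2 CPM centred on the mean of each sex. These values describe 36 mice that share treatments and libraries. Ighm went with genes of B cells: Blnk, the adaptor of B cell receptor signalling (r = 0.83), Ly6d (r = 0.81) and Faim3, the IgM receptor now named Fcmr (r = 0.80). Among the 32 mice without the high mitochondrial share its closest were Siglecg, an inhibitory receptor of B cells, Ighd, and Tnfrsf13c, the receptor of the B cell survival factor BAFF, each at r = 0.86, and Pax5, the B cell identity factor, stood at 0.85. Pigr went with Saa3, an acute phase protein (r = 0.79), Lcn2, which withholds iron from bacteria (r = 0.75), and Tnfrsf9 (r = 0.71) over 36 mice, and with Chil1, a chitinase-like protein (r = 0.82), Saa3 (r = 0.78) and Cp, ceruloplasmin (r = 0.77), over 32.

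The partners of Igha changed with the libraries used. Over 36 mice they were Noxo1 (r = 0.70), Kctd7 and Usp35 (each r = 0.69). Over 32 mice the closest was the J chain gene, listed as Igj (r = 0.74), which over 36 mice stood at r = 0.21, followed by Cd274 (r = 0.61) and Mx1 (r = 0.60). Within the sexes Igha and Igj stood at r = 0.11 over 18 female, 0.80 over the 14 female mice without the high mitochondrial share and 0.70 over 18 male mice. Mzb1 went with H2-K1, a class I antigen-presenting molecule (r = 0.96), Parp10 and H2-T23 (each r = 0.95) over 36 mice. For H2-K1 this was r = 0.99 over 18 female, 0.90 over the 14 female mice without the high mitochondrial share, 0.25 over 18 male and 0.71 over the 32 mice, and the 4 libraries with a high mitochondrial share held the 4 lowest values of both genes. Without them the closest to Mzb1 were Gimap1 (r = 0.76), Neurl3 (r = 0.73) and Gngt2 (r = 0.72). The 2 IgG members had weaker partners, Fam19a1 for Ighg1 (r = 0.57) and Zfp438 for Ighg3 (r = 0.62).

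**Figure D4:**
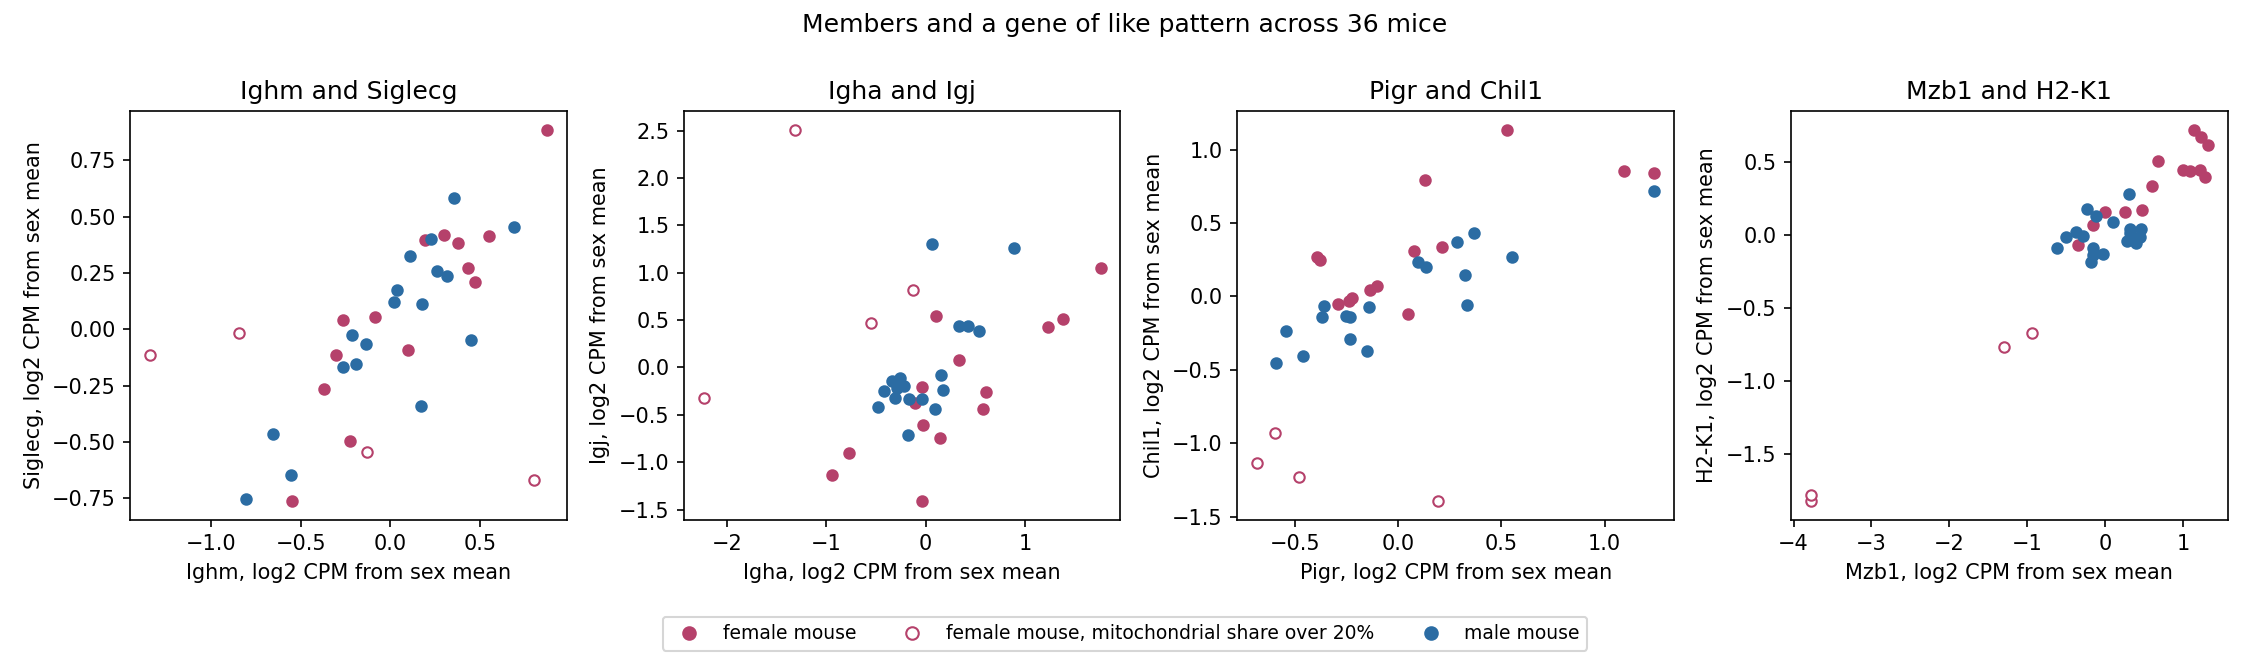
Each of 4 members against a gene of like pattern, as log2 CPM minus the mean of the sex, with 1 point per mouse and open points for the 4 female libraries with over 20% mitochondrial counts. For Igha and Igj the open points lie off the line of the others, and r is 0.21 over 36 and 0.74 over 32 mice. For Mzb1 and H2-K1 the open points are the lowest of both genes, and r is 0.96 over 36 and 0.71 over 32 mice.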

How the data were processed

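Libraries of 36 mouse lungs were made from total RNA with a stranded mRNA kit, per the paper. There, Salmon assigned reads to the GRCm38 cDNA set and tximport collected the results, and the authors deposited expected counts per gene symbol for female mice (18120 rows) and male mice (18295 rows). All values were whole numbers, so that rounding to whole numbers altered none, and the lowest row sum was 10. From each table, rows that share a name, 4 in number, were left out (0.0103% and 0.0128% of counts), and 0 columns of other samples were found. The submitters' processing notes name Salmon and GRCm38, with no version of the tool or the annotation. Because the reads were assigned before deposit, IgG genes and Mzb1 can carry reads of overlapping or similar transcripts. Groups were taken from the sample titles and treatment labels.

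Genes were tested with the quasi-likelihood test of edgeR 4.0.16 in R 4.3.3 (TMM, filterByExpr, Benjamini-Hochberg over all genes tested), within a sex on the groups compared, over both sexes with sex as a covariate, over 6 groups, and as the interaction of sex and treatment. A standard error is the log2 fold change divided by the square root of F. DESeq2 1.42.0 and limma 3.58.1 (voom with quality weights), other normalizations, filters and samples were alternatives. The scripts were tested on simulated data. CPM used effective library sizes, and log2 CPM a prior count of 2. At total counts of 17501180 to 30011557, the IgG members and Mzb1 rest on few counts. Relations between members, in numpy 2.4.6, used group-centred log2 CPM. The authors' own test was DESeq2; edgeR came first here because the deposited values are counts, with DESeq2 as an alternative. No source says that the mice of a group were treated independently, so p-values measure the spread between these mice.

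Members, gene lists and tests were chosen with earlier results of these data known. A fold change with its error is printed for a member at an unadjusted p under 0.05 in a comparison with saline, and for its smallest p in each sex and over both. All constant region genes, Jchain and Xbp1 may be named, and from each other list the 3 genes with the smallest p. Lists that gave no value named in the text were T cell, germinal centre and lymph node genes, of which, as of all lists, edgeR called 0 genes against saline.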

Additional observations from a re-analysis of the deposited data

Results flagged for a closer look

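Pigr after oil was singled out because every male mouse was above and every female mouse below the saline mice of its sex. The difference between the responses was 1.78 on the log2 scale (male minus female), and the interaction test of edgeR gave it an unadjusted p of 0.00485 and an adjusted p of 1, which did not pass. Groups of 3 mice were too small for the check for single outlying mice.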

How the results depend on the processing

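In edgeR 0 members passed the adjusted threshold in each of 22 tests, under every filter, normalization and left-out mouse tried. DESeq2 called 1 member in male oil, 2 in male Corexit 9527, 1 over the 6 female and 2 over the 6 male groups, and limma voom called 1 over the 6 female groups, where these tools called 1.31%, 3.98%, 0.309%, 3.94% and 7.23% of all genes. The cause was not tested. Of the log2 fold changes printed, these turned in sign: Ighm of female Corexit 9500 mice (-0.07 in limma voom), Mzb1 of female 9527+oil mice (-0.01 in limma voom, -0.09 without the 4 libraries of high mitochondrial share, -0.09 to 1.11 with 1 mouse left out), Igha of female Corexit 9500 mice (-0.92 to 0.20 with 1 mouse left out, 0.20 without saline mouse 2) and Igha of Corexit 9527 over both sexes (-0.05 to 0.84, -0.05 without female mouse 10). None of these had an unadjusted p under 0.05. The relation of Igha and Mzb1 in female mice was weaker without the 4 libraries (r = 0.39), an alternative chosen after seeing the data, as were leaving out 1 mouse there (r = 0.57 to 0.83), the likeness over 32 mice, and leaving out 1 mouse for the other genes printed and for Pigr in female oil mice. Some low members were lost, and had no value, where each mouse had to reach 10 counts.

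Treated and saline mice share no mouse numbers, but the sexes do. Same-numbered mice correlated at r = -0.47 to 0.34 (median 0.11), 10 of 18 pairs over 0.1, and 2 of 18 female mice correlated best with their own number. No chance level was computed for these values, and whether same-numbered mice share more than a number was not tested. With the number as a replicate block, the differences between the sexes were 1.67 for Pigr in oil, 3.84 for Ighg3 and 0.85 for Pigr in 9500+oil, and 3.46 for Ighg3 and 1.13 for Pigr in 9527+oil, with 0 members called. Depth limits Ighg1, Ighg3 and Mzb1, which rest on 0 to 425 counts per mouse.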
